A study of Mus musculus with 4 samples.

Results

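The genes described here are the 3 leucine-rich repeat receptors Lgr4, Lgr5 and Lgr6, the 4 R-spondins Rspo1, Rspo2, Rspo3 and Rspo4, the membrane E3 ubiquitin ligases Znrf3 and Rnf43, and the WNT feedback gene Axin2. They are 10 of the 53715 genes in the deposited table. They were picked by name, around the abundant Lgr4, with the values of these libraries already known, so their levels and their differences between labels are given as a description and were not tested. The RNA came from C57BL/6 mouse embryos at E12.5, and the labels name the cells primordial germ cells, the embryonic precursors of eggs and sperm. Magnetic-bead sorting enriched the cells, and every library was made from 1000 of them by a modified Smart-seq2 protocol, a way of making full-length cDNA from few cells, with Tn5 transposase. One group of 2 libraries carries the label Rif1_KO, a knockout of the chromatin and replication-timing factor Rif1, and the other group of 2 libraries carries the label WT, wild type on the same strain background. The labels give no deleted exon, no Cre driver, no sex, no sorting marker, and no word on whether libraries with 1 label stem from different embryos, so spreads within a group may be technical. In each pair of values below, replicate 1 comes before replicate 2.

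R-spondins are secreted proteins that bind an Lgr receptor with one surface and Znrf3 or Rnf43 with another. Znrf3 and Rnf43 ubiquitinate Frizzled receptors and clear them, with the co-receptor Lrp6, from the cell surface, and an R-spondin held by an Lgr receptor takes the ligase away, so that WNT receptors stay. Axin2, Znrf3, Rnf43 and Lgr5 are themselves switched on by WNT and beta-catenin in many tissues, and Axin2 and both ligases then dampen the pathway. In the fetal mouse gonad, Rspo1 acts with Wnt4 in somatic cells to drive ovary differentiation, and Lgr5 marks somatic cells of the ovarian surface and cortex.

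The libraries held 12071903 and 14421298 counts under the label Rif1_KO, and 12768932 and 11724630 under the label WT. Rif1 had 1144 and 1207 counts under the label Rif1_KO against 474 and 44 under the label WT (86.2 and 63.9 CPM under Rif1_KO, against 43.7 and 4.73 CPM under WT). This runs opposite to the labels, and libraries are therefore named by label throughout, with each direction being that of the labels. CPM here means counts per 1000000 of the library total after TMM scaling, a correction for differences in RNA composition. The 12 germ cell markers summed to 36.3 and 36.9 CPM under the label Rif1_KO, and to 36.9 and 441 CPM under the label WT. The germ cell helicase Ddx4 stood at 1.05 and 0.53 CPM under the label Rif1_KO, and at 0.645 and 59.2 CPM under the label WT, so WT replicate 2 alone held appreciable Ddx4. Xist stood at 37.5 and 98.3 CPM under the label Rif1_KO, and at 141.5 and 135.3 CPM under the label WT. Of the Y-linked genes, Kdm5d and Uty had 0 counts in all 4 libraries, and Ddx3y and Eif2s3y had 0 in all but WT replicate 2, at 0.107 and 0.322 CPM. Fewer cells of a type and less RNA per cell cannot be told apart in these bulk libraries.

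Promoter sequence was available for 6 of the 10 genes (7 promoters, since Rnf43 has 2). The 250 bases before the transcription start are printed for Lgr4, the abundant receptor, Rspo1, the ligand with most counts, and Axin2, the feedback gene, on the plus strand, from RefSeq on GRCm38 (mm10). They cover chr2:109917397-109917646 for Lgr4, chr4:124986180-124986429 for Rspo1 and chr11:108920099-108920348 for Axin2. Capitals mark the matched words.
Lgr4: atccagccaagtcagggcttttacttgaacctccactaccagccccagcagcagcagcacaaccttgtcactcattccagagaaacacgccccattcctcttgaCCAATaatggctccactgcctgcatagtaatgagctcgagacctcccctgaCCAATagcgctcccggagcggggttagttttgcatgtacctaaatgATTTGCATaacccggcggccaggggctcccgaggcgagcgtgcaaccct
Rspo1: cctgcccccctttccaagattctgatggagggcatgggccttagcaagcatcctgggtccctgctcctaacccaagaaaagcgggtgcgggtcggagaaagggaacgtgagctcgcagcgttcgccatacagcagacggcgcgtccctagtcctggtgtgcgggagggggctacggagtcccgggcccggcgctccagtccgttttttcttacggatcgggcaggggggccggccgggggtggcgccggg
Axin2: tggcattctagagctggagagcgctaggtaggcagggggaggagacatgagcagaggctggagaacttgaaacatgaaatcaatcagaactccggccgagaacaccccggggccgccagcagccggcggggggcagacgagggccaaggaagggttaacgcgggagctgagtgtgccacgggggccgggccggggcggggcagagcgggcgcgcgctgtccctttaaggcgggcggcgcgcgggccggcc
The core TCF/LEF words CTTTGAT and CTTTGTT, searched on both strands, occurred in 0 of the 7 promoters, while 8.06% of 32851 mouse promoters of this length hold at least 1. The Lgr4 promoter held the CCAAT word 2 times on the plus strand, 146 to 142 and 95 to 91 bases before the start. It also held the octamer word ATTTGCAT, 49 to 42 bases before the start. These 2 words were looked for, on both strands, after the sequence had been read. At least 2 CCAAT words occur in 10.1% of all promoters, the octamer in 1.6%, and both together in 0.28%. G and C made up 55.6% of the bases for Lgr4, 66.8% for Rspo1 and 69.2% for Axin2, beside a median of 52.4% over all promoters.

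Lgr4 (ENSMUSG00000050199.13, chromosome 2, 109917647 to 110014257, plus strand, mm10) was by far the most abundant of the 10 genes in every library. It encodes a widely expressed R-spondin receptor. Its counts were 20683 and 14734 under the label Rif1_KO, and 7002 and 4827 under the label WT. Scaled, this was 1558 and 780.4 CPM under the label Rif1_KO, against 645 and 519 CPM under the label WT. Both Rif1_KO libraries lay above both WT libraries, but the gap between Rif1_KO replicate 2 and WT replicate 1 was smaller than the gap between the Rif1_KO replicates. Lgr4 averaged 1169 ± 550.2 CPM under the label Rif1_KO and 582 ± 89.2 CPM under the label WT (SD, n = 2 each), a ratio of 2.01. The log2 fold change was 1.01 (SE 0.37), and it was 0.50 with Rif1_KO replicate 1 left out, 1.47 with Rif1_KO replicate 2, 1.22 with WT replicate 1 and 0.87 with WT replicate 2 left out. Per length of exon, Lgr4 stood at 264.9 and 132.6 RPKM (CPM per kilobase) under the label Rif1_KO, and at 109.6 and 88.2 RPKM under the label WT. By RPKM it ranked 237 and 399 among all genes in the libraries labelled Rif1_KO, and 570 and 723 in those labelled WT. No other gene of the table shares an exon base with it.

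Lgr5 (chromosome 10, 115450311 to 115587780, minus strand), a receptor best known as a stem cell marker, had 334 and 650 counts under the label Rif1_KO, and 567 and 16 under the label WT. These are 25.2 and 34.4 CPM in Rif1_KO libraries, against 52.2 and 1.72 CPM in WT libraries. WT replicate 1 was the highest of the 4 and WT replicate 2 the lowest, 30.4 times apart, with both Rif1_KO libraries between them, so the groups overlapped. The log2 fold change was 0.14 (SE 1.39), and it was 4.15 without WT replicate 1 and -0.80 without WT replicate 2. The same WT replicate 2 held the germ cell markers given above, and the part of this in its low Lgr5 was not tested.

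Lgr6 (chromosome 1, 134983301 to 135105276, minus strand), the third R-spondin receptor, had 8 and 8 counts under the label Rif1_KO, and 32 and 7 under the label WT. It was near the floor of 3 counts in 3 of the 4 libraries and did not pass the filter on low counts. Within the family, taking RPKM so that genes of different length can be set side by side, Lgr4 made up 99.1% and 97.5% of the summed Lgr level under the label Rif1_KO, and 95.2% and 99.7% under the label WT. Lgr4 stood 108 and 39.5 times above Lgr5 in the Rif1_KO libraries, and 21.5 and 526 times above it in the WT libraries. The dominance of Lgr4 held in every library, while its distance from Lgr5 varied most between the WT libraries. The longest identical stretch between transcripts of any pair of the 3 receptors was 18 bases, between Lgr5 and Lgr6.

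**Figure D1:**
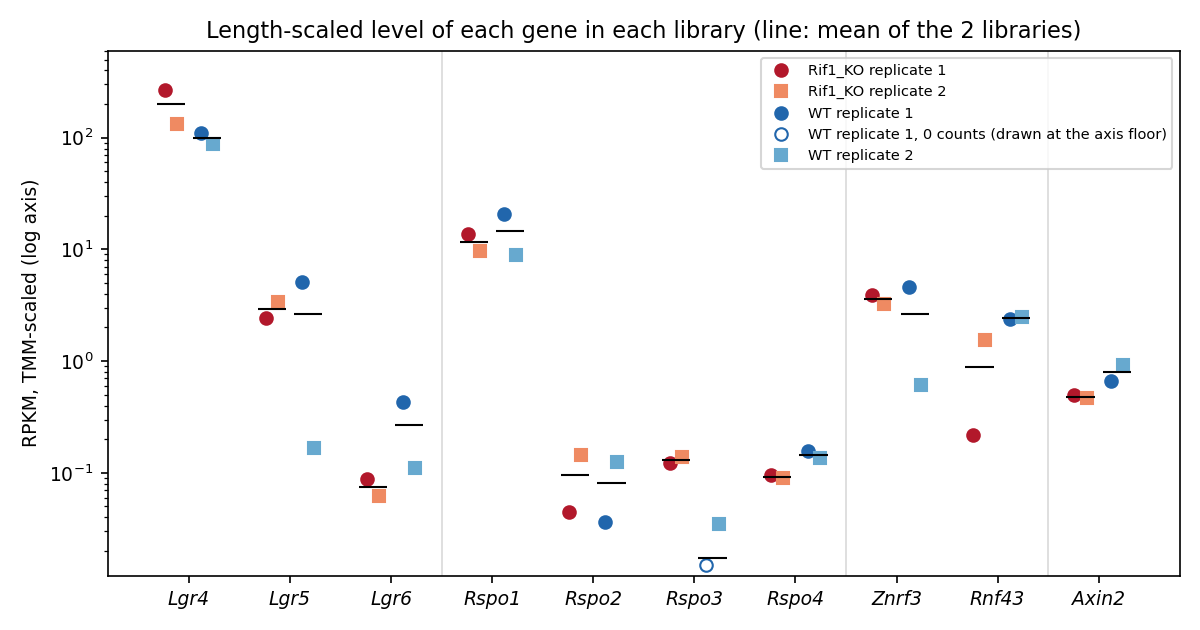
Level of each of the 10 genes in each library, in RPKM after TMM scaling on a log axis; points are libraries, short lines the mean of the 2 libraries of a label, and the open point marks 0 counts, drawn at the axis floor. Lgr4 lies above every other gene in all 4 libraries, Rspo1 comes next, and the WT libraries are far apart for Lgr5 and Znrf3.

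Rspo1 (chromosome 4, 124986430 to 125009099, plus strand) was the only ligand of the family with more than 14 counts in any library. It had 350 and 355 counts under the label Rif1_KO, and 435 and 159 under the label WT. The level was 26.4 and 18.8 CPM in Rif1_KO libraries, against 40.1 and 17.1 CPM in WT libraries. The WT libraries were the highest and the lowest of the 4, so the groups overlapped. Per length this was 13.6 and 9.70 RPKM under the label Rif1_KO and 20.7 and 8.82 RPKM under the label WT, the second highest level of the 10 genes in every library. The log2 fold change was -0.34 (SE 0.93), and it was 0.45 without WT replicate 1 and -0.82 without WT replicate 2.

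The other R-spondins were near the limit of detection. Rspo2 (chromosome 15, 43020794 to 43170826, minus strand), known for its part in limb and lung development, had 3 and 14 counts under the label Rif1_KO, and 2 and 6 under the label WT. Rspo3 (chromosome 10, 29452416 to 29535867, minus strand), known for its part in vessel and placenta development, had 5 and 8 counts under the label Rif1_KO, and 0 and 1 under the label WT. Rspo4 (chromosome 2, 151842927 to 151874668, plus strand), known in humans for its part in nail formation, had 3 and 4 counts under the label Rif1_KO, and 4 and 3 under the label WT. These 3 ligands did not pass the filter, and no fold is given for them. Rspo3 shares 404 of its 3090 exon bases with the antisense gene Gm48159, which had 1 and 9 counts under the label Rif1_KO, and 3 and 0 under the label WT. The counting used no strand, so reads of the pair cannot be told apart there. Rspo1 made up 98.1% and 96.3% of the summed RPKM of the 4 ligands under the label Rif1_KO, and 99.1% and 96.7% under the label WT. Set against its receptor, Lgr4 stood 19.5 and 13.7 times above Rspo1 in RPKM in Rif1_KO libraries, and 5.30 and 9.999 times above it in WT libraries. That ratio was higher in both Rif1_KO libraries than in both WT libraries, as Lgr4 alone was, while Rspo1 overlapped. How often ratios of other gene pairs are apart was not computed. Of all genes tested, 39.4% were apart after TMM scaling.

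The ligases differed from the receptors and ligands in that neither was dominant throughout. Znrf3 (chromosome 11, 5276324 to 5444847, minus strand) had 408 and 484 counts under the label Rif1_KO, and 397 and 45 under the label WT. These are 30.7 and 25.6 CPM in Rif1_KO libraries, against 36.6 and 4.84 CPM in WT libraries. As for Lgr5, WT replicate 1 was the highest and WT replicate 2 the lowest, here 7.56 times apart, and the groups overlapped. The log2 fold change was 0.44 (SE 1.15), and it was 2.59 without WT replicate 1 and -0.37 without WT replicate 2. With library totals as deposited in place of TMM scaling, both Rif1_KO libraries lay above both WT libraries, at 33.8 and 33.6 CPM in Rif1_KO libraries against 31.1 and 3.84 CPM in WT libraries.

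Rnf43 (chromosome 11, 87662722 to 87735539, plus strand) had 19 and 190 counts under the label Rif1_KO, and 169 and 152 under the label WT. The level was 1.43 and 10.1 CPM in Rif1_KO libraries, against 15.6 and 16.3 CPM in WT libraries. Rif1_KO replicate 1 was far below the other 3 libraries, and Rif1_KO replicate 2 was 7.03 times higher, close to the WT pair. Both Rif1_KO libraries lay below both WT libraries after TMM scaling, but with library totals as deposited the groups overlapped, at 1.57 and 13.2 CPM in Rif1_KO libraries against 13.2 and 13.0 CPM in WT libraries. The log2 fold change was -1.47 (SE 1.42), and it was -0.58 with Rif1_KO replicate 1 left out and -3.42 with Rif1_KO replicate 2 left out. In RPKM, Znrf3 over Rnf43 was 17.8 and 2.12 in Rif1_KO libraries, and 1.95 and 0.246 in WT libraries. Znrf3 was thus the more abundant ligase in 3 of the 4 libraries, and Rnf43 in WT replicate 2. The sum of both ligases varied less, at 4.11 and 4.78 RPKM under the label Rif1_KO, and 7.01 and 3.10 RPKM under the label WT.

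Axin2 (chromosome 11, 108920349 to 108950783, plus strand), a scaffold of the complex that degrades beta-catenin and a widely used readout of WNT activity, was low in all 4 libraries. It had 36 and 49 counts under the label Rif1_KO, and 40 and 47 under the label WT. The level was 2.71 and 2.60 CPM in Rif1_KO libraries, against 3.69 and 5.05 CPM in WT libraries. Both Rif1_KO libraries lay below both WT libraries on this scale, with means of 2.65 ± 0.0829 CPM in Rif1_KO libraries and 4.37 ± 0.967 CPM in WT libraries (SD, n = 2 each). The log2 fold change was -0.72 (SE 1.2). With library totals as deposited the groups overlapped, at 2.98 and 3.40 CPM in Rif1_KO libraries and 3.13 and 4.01 CPM in WT libraries. Axin2 shares 209 of its 5506 exon bases with the antisense gene Gm11670, which had 1 and 6 counts under the label Rif1_KO, and 1 and 0 under the label WT.

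By mean RPKM the order under the label Rif1_KO was Lgr4 (198.7 ± 93.5), Rspo1 (11.7 ± 2.76), Znrf3 (3.57 ± 0.458), Lgr5 (2.90 ± 0.638), Rnf43 (0.876 ± 0.931) and Axin2 (0.482 ± 0.0151). The neighbours Znrf3 and Lgr5 overlapped there, as did Rnf43 and Axin2. Under the label WT the order was Lgr4 (98.9 ± 15.2), Rspo1 (14.7 ± 8.39), Lgr5 (2.63 ± 3.48), Znrf3 (2.62 ± 2.84), Rnf43 (2.43 ± 0.083) and Axin2 (0.793 ± 0.176). Lgr5 and Znrf3 overlapped there, as did Znrf3 and Rnf43. All SDs are over n = 2 libraries. The remaining 4 genes, Lgr6, Rspo2, Rspo3 and Rspo4, came below Axin2 under both labels on 32 counts or fewer per library, and their order is not read.

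Of the 10 genes, 6 passed the filter on low counts, and a gene can pass it through 1 group alone. After TMM scaling the libraries of the 2 labels did not overlap for 3 of these 6, Lgr4 higher and Rnf43 and Axin2 lower in Rif1_KO libraries, beside 39.4% of all 15466 genes tested (21.0% higher, 18.4% lower). With library totals as deposited, Lgr4 and Znrf3 were apart, both higher, beside 43.5% of all genes tested (34.4% higher, 9.07% lower). Lgr4 was thus the only gene of the 6 apart under both scalings, and the share of all genes apart under both was not computed. edgeR's quasi-likelihood test called 0 of the 6 at an adjusted p under 0.05, beside 0.0129% of all genes, and DESeq2 called 0 of the 6, beside 3.36%. Without any filter edgeR called Lgr4, beside 0.119% of 45215 genes, and without WT replicate 1 it called Lgr5, beside 7.17% of 18746 genes. The choice of the genes used this same contrast, and nothing is read from these counts.

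**Figure D2:**
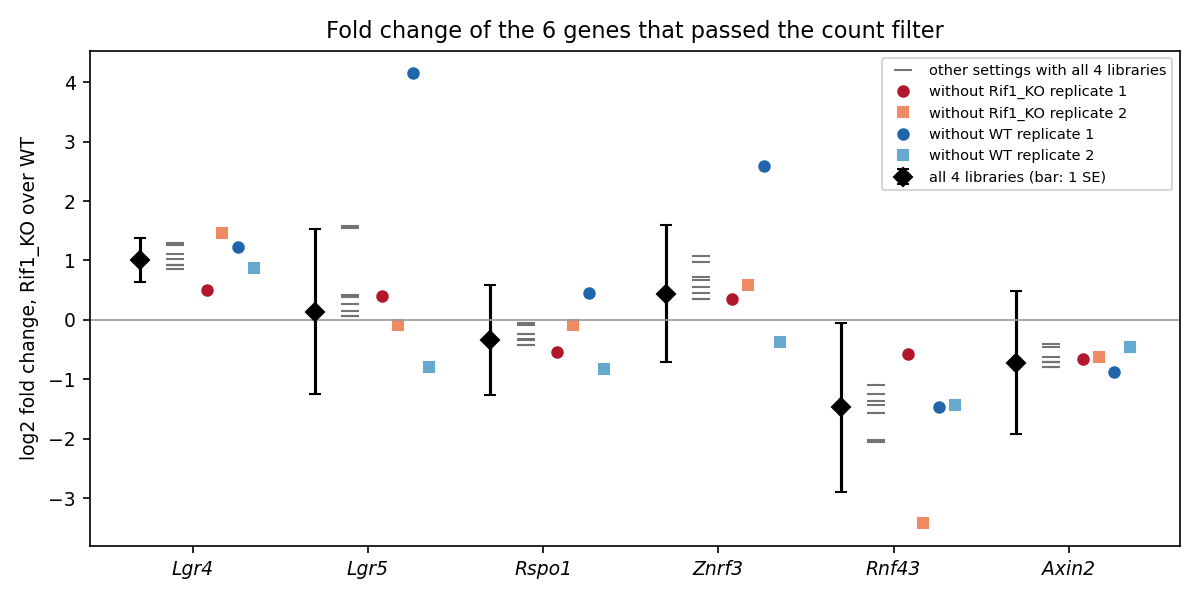
Log2 fold change of Rif1_KO over WT for the 6 genes that passed the count filter. Diamonds with bars are the fit of all 4 libraries with 1 SE, grey dashes other settings with all 4 libraries, and coloured points fits that leave out 1 library. Leaving out WT replicate 1 moves Lgr5 to 4.15 and Znrf3 to 2.59, while Lgr4 stays between 0.50 and 1.47.

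The other genes of the WNT pathway were read from 7 lists by role, with 94 genes in the table, of which 61 were tested. edgeR's quasi-likelihood test called 0 of the 61 and DESeq2 also called 0. At an unadjusted p under 0.05, 1 was higher and 2 were lower in Rif1_KO libraries, or 4.92%, beside 8.41% of all genes tested (5.35% higher, 3.05% lower). Their median log2 fold change was 0.00 with TMM, -0.08 with RLE and 0.28 with upper-quartile factors. That of all genes tested was -0.11 with TMM, -0.195 with RLE and 0.164 with upper-quartile factors, lower than the pathway median each time. The groups did not overlap for 17 genes that were higher and 8 that were lower in Rif1_KO libraries, beside 39.4% of all genes tested (21.0% higher, 18.4% lower). Unless a call is named, the values below are those of genes that did not pass the test.

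Among WNT ligands and the genes that secrete them, 10 of 21 were tested, with a median log2 fold change of -0.47. Wnt9a, a ligand, stood at 2.64 and 3.23 CPM in Rif1_KO libraries against 0.645 and 0.215 CPM in WT libraries, apart but low (edgeR adjusted p = 0.584). Wnt5b, a ligand of beta-catenin-independent signalling, stood at 1.51 and 5.56 CPM in Rif1_KO libraries against 0 and 0.86 CPM in WT libraries. Porcn, which acylates WNTs before secretion, stood at 0.829 and 1.38 CPM in Rif1_KO libraries against 0.921 and 6.99 CPM in WT libraries. Wnt4, the gonadal partner of Rspo1 and named here after its values were seen, stood at 40.5 and 44.5 CPM in Rif1_KO libraries against 68.7 and 58.3 CPM in WT libraries, without overlap after TMM scaling (log2 fold change -0.58, SE 0.56, edgeR adjusted p = 0.829). With library totals as deposited, the groups overlapped for Wnt4. Wnt5a, another ligand named after its values were seen, stood at 25.8 and 39.8 CPM in Rif1_KO libraries against 1.11 and 32.7 CPM in WT libraries, and edgeR called it higher without WT replicate 2 (log2 fold change 4.89, adjusted p = 0.00375), beside 4.76% of 18687 genes called.

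Among the WNT receptors, which include the Frizzled receptors and Lrp6 that Znrf3 and Rnf43 clear, 14 of 16 were tested. Their median log2 fold change was 0.49. Ryk, a kinase-like co-receptor, stood at 25.5 and 25.4 CPM in Rif1_KO libraries against 0.461 and 3.98 CPM in WT libraries (edgeR adjusted p = 0.601). The Frizzled receptor Fzd7 stood at 13.4 and 3.97 CPM in Rif1_KO libraries against 1.57 and 0.86 CPM in WT libraries. Its relative Fzd1 stood at 29.2 and 37.4 CPM in Rif1_KO libraries against 1.84 and 14.4 CPM in WT libraries. All 3 were apart between the labels and higher in Rif1_KO libraries, but they were named for the smallest p in the list. Of the 14 tested, 4 were apart and higher and 2 apart and lower, beside 21.0% and 18.4% of all genes tested. Without WT replicate 2, edgeR called Ryk (log2 fold change 5.77, adjusted p = 0.00385) and Fzd1 (4.18, adjusted p = 0.0116), beside 4.76% of 18687 genes called.

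Cytoplasmic transducers had 12 of 13 genes tested and a median log2 fold change of -0.18. Btrc, the substrate adaptor of the ubiquitin ligase that takes phosphorylated beta-catenin, stood at 7.01 and 27.2 CPM in Rif1_KO libraries against 144.2 and 54.4 CPM in WT libraries (edgeR adjusted p = 0.571). It was apart between the labels, and without WT replicate 2 it was called lower (log2 fold change -3.07, edgeR adjusted p = 0.000151), beside the same 4.76% of all genes. Gsk3b, the kinase that phosphorylates beta-catenin, stood at 1036 and 521 CPM in Rif1_KO libraries against 507 and 479 CPM in WT libraries, with Rif1_KO replicate 1 above the other 3. Tnks2, a tankyrase that marks Axin proteins for removal, stood at 53.5 and 89.3 CPM in Rif1_KO libraries against 38.9 and 39.7 CPM in WT libraries. TCF/LEF factors and their co-activators had 8 of 8 genes tested and a median of -0.48. Of these, Tcf7l2 stood at 63.9 and 82.1 CPM in Rif1_KO libraries against 104.3 and 139.1 CPM in WT libraries, without overlap after TMM scaling. With library totals as deposited, the groups overlapped for Tcf7l2. Tcf7 stood at 18.5 and 14.6 CPM in Rif1_KO libraries against 0.276 and 8.81 CPM in WT libraries, and was called higher without WT replicate 2 (log2 fold change 5.87, edgeR adjusted p = 0.0209), again beside 4.76% of all genes. Lef1 overlapped, at 36.4 and 16.2 CPM in Rif1_KO libraries against 30.8 and 66.4 CPM in WT libraries.

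Among secreted and membrane WNT inhibitors, 4 of 17 passed the count filter and were tested, with a median log2 fold change of 1.48. The secreted WNT binder Sfrp1 stood at 21.2 and 69.8 CPM in Rif1_KO libraries against 15.8 and 0.322 CPM in WT libraries, and its relative Sfrp2 at 15.4 and 17.3 CPM in Rif1_KO libraries against 6.54 and 0.752 CPM in WT libraries. Both were apart between the labels and lowest in WT replicate 2, the library that was also lowest for Lgr5 and Znrf3. In this list 2 of the 4 tested were apart and higher and 0 apart and lower, beside 21.0% and 18.4% of all genes tested. Without WT replicate 1, edgeR called Sfrp1 (log2 fold change 7.14, adjusted p = 2.49e-06) and Sfrp2 (4.47, adjusted p = 0.0472), beside 7.17% of 18746 genes called. Kremen1, a receptor for DKK inhibitors, stood at 1.51 and 3.76 CPM in Rif1_KO libraries against 1.84 and 1.18 CPM in WT libraries.

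Other WNT target genes, beside Axin2, Lgr5 and the ligases, had 8 of 11 tested and a median log2 fold change of 0.41. Myc, the growth regulator, stood at 44.0 and 55.4 CPM in Rif1_KO libraries against 85.3 and 150.3 CPM in WT libraries (edgeR adjusted p = 0.585). Nkd2, a feedback inhibitor that binds Dishevelled, stood at 11.6 and 9.32 CPM in Rif1_KO libraries against 0.921 and 1.72 CPM in WT libraries (edgeR adjusted p = 0.622). After TMM scaling the groups did not overlap for either gene, and the directions were opposite. With library totals as deposited, the groups met for Myc, with Rif1_KO replicate 2 and WT replicate 1 almost equal. Over the 8 tested, 4 were apart and higher and 1 apart and lower, beside 21.0% and 18.4% of all genes tested. Cdx1, a homeobox gene, stood at 1.21 and 0.106 CPM in Rif1_KO libraries against 0.369 and 15.8 CPM in WT libraries. Relatives and partners of the Lgr receptors had 5 of 8 genes tested and a median of -0.08. The thyrotropin receptor Tshr stood at 1.66 and 2.97 CPM in Rif1_KO libraries against 0.461 and 0.43 CPM in WT libraries. The INSL3 receptor Rxfp2 stood at 5.95 and 3.65 CPM in Rif1_KO libraries against 0.553 and 0.752 CPM in WT libraries, and the luteinizing hormone receptor Lhcgr at 1.81 and 6.20 CPM in Rif1_KO libraries against 2.86 and 22.3 CPM in WT libraries.

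**Figure D3:**
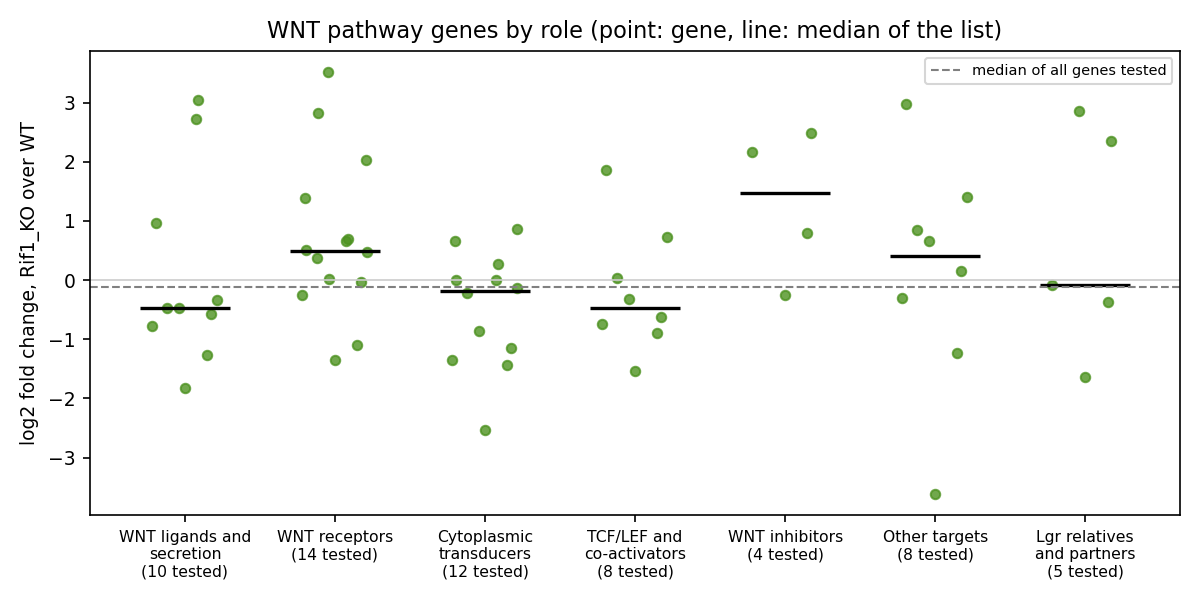
Log2 fold change of Rif1_KO over WT for the 61 tested WNT pathway genes by role; points are genes, black lines list medians, and the dashed line is the median of all genes tested, -0.11. The lists overlap widely, and edgeR called 0 of the 61 genes.

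Markers of the cell types that such a sort could hold were summed beside these genes. The 13 stromal markers summed to 1627 and 1319 CPM in Rif1_KO libraries against 529.6 and 424.8 CPM in WT libraries. By this sum the libraries fell in the same order as for Lgr4, highest in Rif1_KO replicate 1 and lowest in WT replicate 2. Most of the single markers did not keep that order. Dcn, for instance, stood at 190.9 and 224.3 CPM in Rif1_KO libraries against 46.8 and 46.0 CPM in WT libraries. Of the 12 stromal markers tested, edgeR called 0, DESeq2 called 1 higher, and 6 were higher at an unadjusted p under 0.05, beside 0.0129% of all genes called by edgeR, 3.36% called by DESeq2 and 5.35% higher at that unadjusted p. The DESeq2 call was Lum, with 330 and 797 counts in Rif1_KO libraries against 4 and 0 in WT libraries. Lum, also among the 6, passed the count filter through the Rif1_KO libraries alone, and nothing is read from its call. The most abundant was the orphan nuclear receptor gene Nr2f2, at 476 and 268.5 CPM in Rif1_KO libraries against 215 and 162.4 CPM in WT libraries. Next came the collagen gene Col1a1, at 384.7 and 301.4 CPM in Rif1_KO libraries against 46.1 and 87.0 CPM in WT libraries. The 12 erythroid markers summed to 9887 and 4269 CPM in Rif1_KO libraries against 138698 and 113029 CPM in WT libraries. edgeR called 2 of the 12 lower in Rif1_KO libraries, its only calls among the 15466 genes, and DESeq2 called 9 lower, beside its 3.36% of all genes in either direction. These 2 are the near-identical copies Hba-a1 and Hba-a2 (edgeR adjusted p = 0.036 each), between which reads are hard to tell apart. Their calls may not be independent. Pairs were counted from a mapping quality of 30 upwards, so pairs that fit both copies equally well may be missing. The alpha-globin gene Hba-a1 stood at 3872 and 2598 CPM in Rif1_KO libraries against 54994 and 52153 CPM in WT libraries. The embryonic globin gene Hba-x stood at 2976 and 29.9 CPM in Rif1_KO libraries against 30065 and 22917 CPM in WT libraries. Stromal sums were thus higher and erythroid sums lower in both Rif1_KO libraries, and the part of either in the level of Lgr4 was not tested.

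The 12 markers of supporting cells, the somatic lineage in which Rspo1 and Wnt4 act, summed to 908 and 884 CPM in Rif1_KO libraries against 885 and 773 CPM in WT libraries. The groups overlapped after TMM scaling, as they did for Rspo1. With library totals as deposited, the supporting cell sum was higher in both Rif1_KO libraries than in both WT libraries, while Rspo1 still overlapped. Under that scaling, 34.4% of all genes tested were apart and higher in Rif1_KO libraries. The Kit ligand gene Kitl stood at 419 and 392 CPM in Rif1_KO libraries against 344 and 208 CPM in WT libraries. The follistatin gene Fst stood at 172 and 128 CPM in Rif1_KO libraries against 161 and 323 CPM in WT libraries. The 7 surface epithelium markers also overlapped after TMM scaling, with sums of 465 and 433 CPM in Rif1_KO libraries against 357 and 506 CPM in WT libraries. With library totals as deposited, their sum too was higher in both Rif1_KO libraries. Of these, the homeobox gene Lhx9 stood at 423 and 289 CPM in Rif1_KO libraries against 194.5 and 295.3 CPM in WT libraries. The keratin gene Krt8 stood at 10.5 and 37.0 CPM in Rif1_KO libraries against 84.4 and 102.9 CPM in WT libraries, without overlap.

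The 10 endothelial markers summed to 84.9 and 172.5 CPM in Rif1_KO libraries against 276 and 114.5 CPM in WT libraries, and the groups overlapped. Emcn, an endothelial sialomucin gene, stood at 40.7 and 65.6 CPM in Rif1_KO libraries against 86.9 and 31.3 CPM in WT libraries, and Pecam1 at 4.75 and 36.4 CPM in Rif1_KO libraries against 53.0 and 63.96 CPM in WT libraries. The 8 mesonephric markers summed to 46.6 and 55.4 CPM in Rif1_KO libraries against 56.6 and 155.1 CPM in WT libraries. The groups did not overlap after TMM scaling, but WT replicate 1 lay close to the Rif1_KO pair and WT replicate 2 well above the other 3. With library totals as deposited, the mesonephric sums overlapped. Emx2, a homeobox gene, stood at 26.7 and 31.7 CPM in Rif1_KO libraries against 24.5 and 30.2 CPM in WT libraries. The adhesion gene Epcam stood at 3.24 and 9.27 CPM in Rif1_KO libraries against 20.4 and 61.3 CPM in WT libraries. Leukocyte markers were low and overlapped, with 10 genes summing to 7.16 and 3.81 CPM in Rif1_KO libraries against 3.59 and 19.9 CPM in WT libraries. Most of the sum in WT replicate 2 was Csf1r, at 1.13 and 2.81 CPM in Rif1_KO libraries against 0.645 and 16.9 CPM in WT libraries. Fcer1g stood at 3.77 and 0.053 CPM in Rif1_KO libraries against 0.0921 and 0 CPM in WT libraries, and Tyrobp was at 0 in both WT libraries. The germ cell list, summed above, was led by Dazl, at 2.03 and 4.08 CPM in Rif1_KO libraries against 13.0 and 195.7 CPM in WT libraries. Dppa3 stood at 11.8 and 5.77 CPM in Rif1_KO libraries against 10.2 and 164.7 CPM in WT libraries. Both were highest in WT replicate 2, and Sox2 was at 0 in Rif1_KO replicate 2 and in WT replicate 1. Not all of the list ran this way. Prdm1, named here after its values were seen, stood at 0.904 and 17.7 CPM in Rif1_KO libraries against 0.276 and 0.322 CPM in WT libraries. The list sum in Rif1_KO replicate 2 was 36.9 CPM, so equal sums can hide different genes. Of the 7 germ cell markers tested, 2 had a log2 fold change above 0 and 5 below 0.

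**Figure D4:**
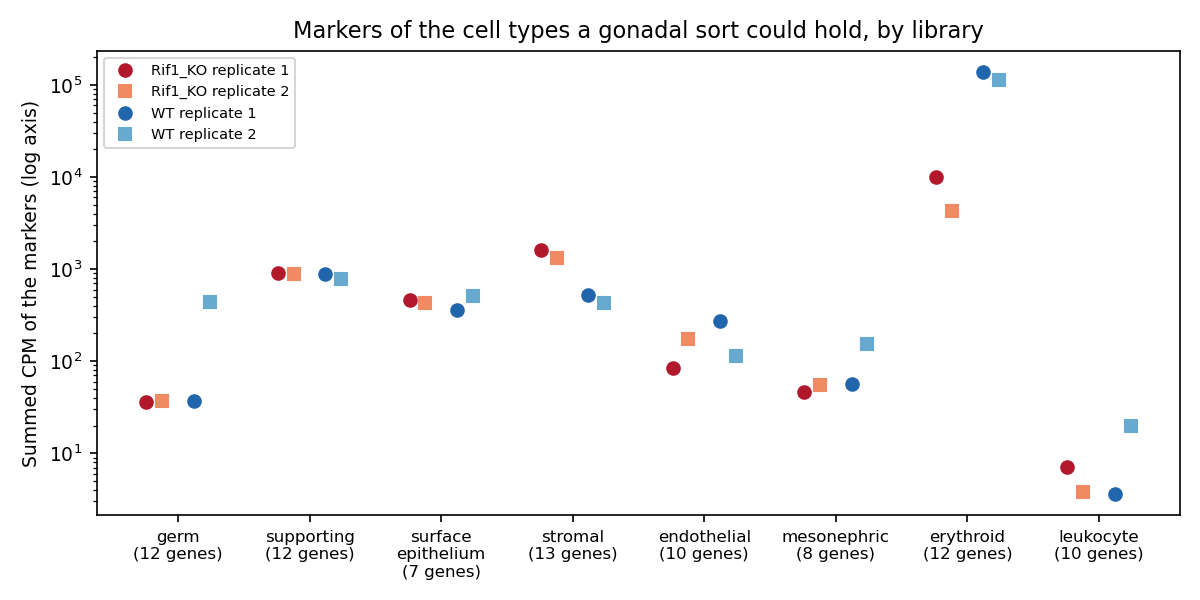
Summed CPM, after TMM scaling, of marker lists of 8 cell types in each of the 4 libraries, on a log axis; points are libraries. Stromal sums are higher and erythroid sums lower in both Rif1_KO libraries, and WT replicate 2 stands above the other 3 for germ cell markers, at 441 CPM.

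The genes whose levels followed that of Lgr4 most closely over the 4 libraries were found by the root mean square difference of log2(CPM + 0.5), each gene centred on its own mean. Among 10255 named genes with a mean of at least 5 CPM, 61 lay within 0.2 of Lgr4, and the median difference was 1.07. The nearest were Itpr1, an intracellular calcium channel gene, at a difference of 0.0665, and Nr2f2, at 0.0688. They were followed by Ibtk at 0.0842, Gnl3l, a nucleolar GTPase gene, at 0.0919, and the cyclin gene Ccnc at 0.115. Itpr1 stood at 66.985 and 34.4 CPM in Rif1_KO libraries against 27.9 and 20.1 CPM in WT libraries. With 4 libraries, this likeness is a description of these libraries only.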

How the data were processed

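Counts per gene were measured in 4 libraries and deposited as 1 table of whole numbers, with no normalization. Per the submitters' processing notes, reads were handled with Trim Galore, FastQC, HISAT2, SAMtools and featureCounts with mm10 as the mouse build. The deposited counts came, per the file headers, from featureCounts 1.6.2 with GENCODE M17 genes, and read pairs were counted from a mapping quality of 30 upwards, for every gene a pair overlaps, and without strand. Groups and replicate numbers came from the labels.

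Symbols were looked up by Ensembl identifier (95 of 53715 had none), and positions are those of the table. edgeR's filterByExpr (minimum count 10) kept 15466 genes. The test was edgeR 4.0.16 (R 4.3.3, limma 3.58.1), quasi-likelihood with robust dispersion and TMM factors, Benjamini-Hochberg adjustment and a threshold of 0.05, and it was tested on simulated data. The TMM factors were 1.107 and 1.319 under the label Rif1_KO, and 0.856 and 0.80 under the label WT. The common biological coefficient of variation was 0.842. SE is the log2 fold change over the square root of F. RPKM is the TMM-scaled CPM per kilobase of the exon length in the table. The floor is 3 counts per library, and counts of a Smart-seq2 library are not independent molecules. A chi-square test between the replicates' counts gave 86.6 per degree of freedom under the label Rif1_KO and 107 under the label WT, so no pair is the same library.

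The 10 genes and all lists were chosen with earlier results of these data known. Of 194 list entries, 1 was not in the table. In each pathway list the text names the 3 genes with the smallest p at 1 CPM or more in either group, in each cell type list the 2 most abundant and any at 0 in a group. Alternatives were RLE and upper-quartile factors, no filter, at least 10 counts in every library, DESeq2 1.42.0, limma-voom, a fit without haemoglobin and rRNA-region genes, a replicate block, TPM for the order of levels, and each library left out. Scaling by library totals as deposited was added after seeing the data. Promoters are RefSeq's on GRCm38, and transcripts are those of GENCODE M21.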

Additional observations from a re-analysis of the deposited data

How the results depend on the processing

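With all 4 libraries edgeR called 2 genes, both lower in Rif1_KO libraries. The number called was 0 with upper-quartile factors (0 lower) and 0 without haemoglobin and rRNA-region genes (0 lower), 6 with at least 10 counts in every library (1 higher, 5 lower), 54 with no filter (18 higher, 36 lower) and 519 with DESeq2 (329 higher, 190 lower). The fit without haemoglobin genes left out the 2 called genes themselves, Hba-a1 and Hba-a2, so the loss of their calls there was fixed in advance. Leaving out 1 library gave 5 to 1345 genes, with 0 to 692 higher and 5 to 653 lower; the largest count came without WT replicate 1, and 890 genes were called without WT replicate 2, both with 1 WT library assumed to vary like the Rif1_KO pair. Replicate numbers are shared between the labels, which do not say whether equal numbers share an origin. The differences between replicates correlated at -0.0241 across the groups, but a value near 0 cannot exclude a shared origin. The fit with the replicate block called 7 genes, 7 lower and 0 higher. WNT pathway genes called were 0 with all libraries and 0 to 5 with 1 left out. Those at an unadjusted p under 0.05 were 3, against 5 with upper-quartile factors, 8 with no filter, 6 with DESeq2 and 2 to 13 with 1 library left out. The pathway median log2 fold change of 0.00 became 0.01 to 0.75 with 1 library left out, 0.75 without WT replicate 1 and 0.49 without WT replicate 2, where the median of all genes was 0.317 and 0.285. In the order of levels, 5 to 6 of the 10 genes kept their place in Rif1_KO libraries with 1 library left out. In WT libraries 3 to 10 did. With TPM 10 did, but TPM and RPKM order genes alike within a library. Only the weight of each library in the mean could differ, so little is read from this. Of 72 fold changes of the 6 tested genes under these alternatives, 68 differed from the main fit by less than 1 SD. That SD was the root of the summed replicate variances of both labels in log2(CPM + 0.5). It was 3.25 for Lgr5 and 1.99 for Znrf3, wide enough to take in changes of sign. Lgr4, Rnf43 and Axin2 kept their sign in 12 of 12, Rspo1 and Znrf3 in 11 of 12, and Lgr5 in 10 of 12. Axin2 ranged from -0.88 to -0.41. The cause of these differences was not tested. Counts of 0 to 32 limit what can be said of Lgr6, Rspo2, Rspo3 and Rspo4.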
